A study of Mus musculus with 8 samples.

Results

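The 10 genes described here are transcriptional targets and feedback regulators of canonical Wnt signalling: Sp5, Axin2, Lgr5, Ascl2, Rnf43, Znrf3, Nkd1, Tnfrsf19, Ephb2 and Ephb3. They were chosen by name as known Wnt targets, by a choice that used the diet differences of these same counts, which were already known. Their diet values are therefore given as a description. Where a gene of the 10 is said to pass the threshold of the fit over all genes, this places it among the calls of that fit and is not independent evidence. All 10 were found among the 55414 gene identifiers of the count table, and all 10 passed the expression filter that kept 10911 genes.

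RNA-seq counts were obtained from Paneth cells (PCs) of C57BL/6J mice. A single cell suspension of the small intestine was sorted by FACS, and each mouse gave 1 library, prepared with a stranded mRNA kit. The 4 control mice received standard chow and the 4 zinc deficient mice a zinc depleted chow, in both cases freely available for 7 weeks, and all 8 mice carried the same genotype. The sources used here do not give the age or sex of each mouse. The sort defines the cells, so that cells caught with PCs are part of each library.

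In canonical Wnt signalling, a Wnt ligand binds a Frizzled receptor together with Lrp5 or Lrp6. β-catenin then escapes degradation and activates genes through TCF/LEF transcription factors. The crypt base of the small intestine, where PCs sit between the stem cells, is a place of high Wnt activity, and PCs themselves produce Wnt3. Several targets act back on the pathway: Axin2 is part of the complex that degrades β-catenin, Nkd1 binds Dishevelled, and Rnf43 and Znrf3 are ubiquitin ligases that remove Frizzled from the membrane. Lgr5, Ascl2 and Tnfrsf19 are known as markers of the crypt base stem cells, and Ephb2 and Ephb3 position cells along the crypt.

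The libraries held between 8557690 and 12648005 counts, and 3 counts, up to which a gene without a count could still lie, equal 0.237 to 0.351 CPM, the counts scaled to a common library size. The TMM scaling factors of edgeR were between 0.719 and 1.57, the highest in control replicate 1, and levels are given as normalised CPM, which use these factors. As a check of the label, the 9 PC markers, Lyz1 and defensin genes among them, summed to 315585 to 646401 normalised CPM in the control mice. In the zinc deficient mice they summed to 521828 to 919418. Because of the TMM factors, normalised CPM do not add up to the same total in each mouse. These and the following sums are therefore not shares of the counts, and their differences between mice include those of the factors. The 6 immune markers summed to at most 2.55 normalised CPM in any mouse and 4 of them had no count, and of the 7 stromal and vessel markers 5 had no count and the sum was at most 0.162. The 7 goblet cell markers summed to 1590 to 3169 normalised CPM in the control mice and to 2162 to 5172 in the zinc deficient mice, the 9 enterocyte markers to 243 to 422 and to 231 to 365, and the 10 enteroendocrine markers to 24.9 to 93.0 and to 20.1 to 41.6. The 7 tuft cell markers reached 316 normalised CPM in zinc deficient replicate 3 and lay between 17.6 and 83.7 in the other mice. In such bulk samples, fewer cells of a type and less RNA per cell cannot be told apart.

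Of the 10 genes, 8 had negative and 2 positive log2 fold changes, zinc deficient minus control, and the sizes varied widely. Sp5 had the lowest, at 1.46 against 4.30 normalised CPM. Axin2, Ascl2, Tnfrsf19, Rnf43 and Lgr5 followed with log2 fold changes between -0.81 and -0.51, and Ephb2 was at -0.25. Nkd1, Znrf3 and Ephb3 lay between -0.02 and 0.17. All are from the edgeR fit over all 10911 genes. The median over the 10 genes was -0.54, beside -0.01 over all genes tested, of which 50.7% were negative.

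Of the 10 genes, 1 (Sp5) passed the threshold, an adjusted p of 0.05 over all genes, and it was lower in the zinc deficient mice. In the whole fit 0.403% of genes passed, 0.257% lower and 0.147% higher. An unadjusted p under 0.05 with a lower level was found for 6 of the 10 genes and for 6.04% of all genes. Every zinc deficient mouse was below every control mouse for 2 of the 10 genes (Sp5 and Lgr5) and for 3.79% of all genes. As the choice of the genes used this contrast, nothing is read from these shares.

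**Figure D1:**
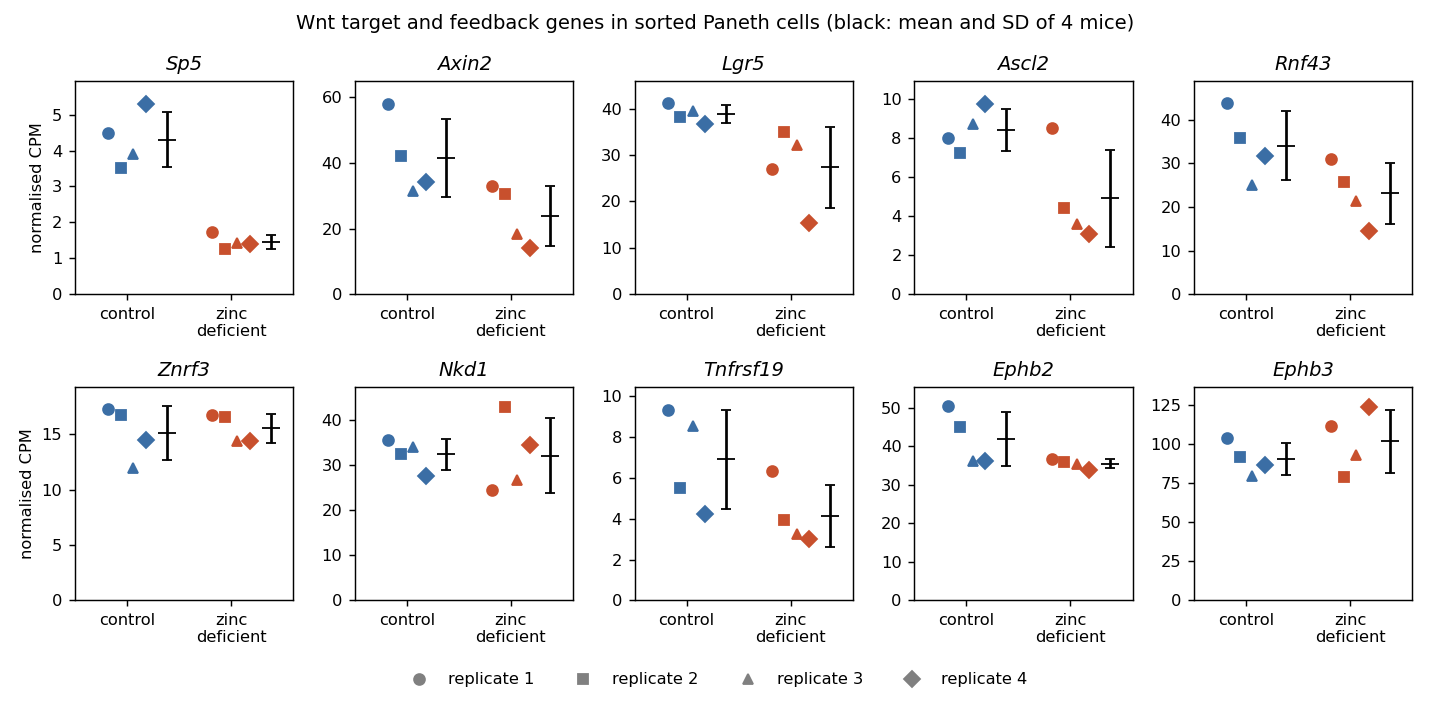
Normalised CPM (y axes, linear and starting at 0) of the 10 genes in each of the 4 control and 4 zinc deficient mice, with a symbol per replicate number and the mean and SD in black. The diets are separate for Sp5 and Lgr5 and overlap for the other 8 genes, and zinc deficient replicate 4 is the lowest zinc deficient mouse for 7 of the 10 genes. The share of all genes lowest in that mouse was not counted.

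Sp5 and Ascl2 are the transcription factors of the group. Sp5 (ENSMUSG00000075304, chromosome 2, 70305267 to 70308073 on GRCm39, plus strand) encodes a zinc finger protein of the Sp/KLF family. It had 83, 43, 31 and 50 counts in control replicates 1 to 4 and 16, 10, 18 and 15 counts in zinc deficient replicates 1 to 4. As normalised CPM these were 4.48, 3.52, 3.91 and 5.29 in the control mice and 1.73, 1.26, 1.44 and 1.40 in the zinc deficient mice. All 4 zinc deficient mice were below all 4 control mice and lay close to each other.

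The mean of Sp5 was 4.30 ± 0.769 (SD, n = 4) in the control mice and 1.46 ± 0.195 (SD, n = 4) in the zinc deficient mice, a log2 fold change of -1.55 with a standard error of 0.31 (2.93-fold lower). These are low counts: the nearest mice of each diet, control replicate 2 and zinc deficient replicate 1, had 95% Wilson intervals, which cover counting error only, of 2.62 to 4.75 and of 1.06 to 2.80 normalised CPM, which overlap. Without any 1 of the 8 mice the log2 fold change was between -1.64 and -1.44, and Sp5 no longer passed the threshold, whichever mouse was left out. With the library size alone as scaling it was -1.90, also short of the threshold, where the median of all genes was -0.37.

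Ascl2 (ENSMUSG00000009248, chromosome 7, 142520564 to 142523006, minus strand) encodes a basic helix-loop-helix factor needed by crypt base stem cells. Its levels were 7.98, 7.21, 8.70 and 9.74 normalised CPM in the control mice and 8.52, 4.42, 3.59 and 3.09 in the zinc deficient mice. Zinc deficient replicate 1 stood among the control mice and the other zinc deficient mice were below all of them. The log2 fold change was -0.78 (SE 0.28), which was short of the threshold, and it was -1.19 without zinc deficient replicate 1.

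Promoter sequences of 8 of the 10 genes, 10 start sites in all, were taken from the RefSeq promoter table on GRCm38.p6. Lgr5 and Znrf3 had no entry in the table. For each, the 250 bases before the start were searched on both strands for CTTTGAA or CTTTGAT and for CTTTGTA or CTTTGTT, letters of the TCF/LEF type, and for GGGCGG, the GC box bound by Sp factors. The 250 bases were each found at 1 place on GRCm39, and the positions below are on that build. Sp5 is shown as the only gene of the 8 searched with 2 TCF/LEF type matches, Axin2 for its GC boxes without such a match, and the second Tnfrsf19 start for holding both. Capitals mark the matches, and each sequence is written 5′ to 3′ on the strand of its gene, ending at the base before the start.
Sp5, chr2:70305017-70305266, plus strand: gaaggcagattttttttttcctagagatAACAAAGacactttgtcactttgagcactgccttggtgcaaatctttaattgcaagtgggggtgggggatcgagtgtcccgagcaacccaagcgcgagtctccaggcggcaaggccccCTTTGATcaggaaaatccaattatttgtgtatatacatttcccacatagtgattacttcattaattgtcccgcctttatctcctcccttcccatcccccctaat
Axin2, chr11:108810925-108811174, plus strand: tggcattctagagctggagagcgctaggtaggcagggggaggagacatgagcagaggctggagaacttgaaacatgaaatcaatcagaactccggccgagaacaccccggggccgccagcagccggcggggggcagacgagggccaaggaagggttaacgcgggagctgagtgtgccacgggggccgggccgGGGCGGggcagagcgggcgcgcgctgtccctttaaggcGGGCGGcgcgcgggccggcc
Tnfrsf19 second start, chr14:61275437-61275686, minus strand: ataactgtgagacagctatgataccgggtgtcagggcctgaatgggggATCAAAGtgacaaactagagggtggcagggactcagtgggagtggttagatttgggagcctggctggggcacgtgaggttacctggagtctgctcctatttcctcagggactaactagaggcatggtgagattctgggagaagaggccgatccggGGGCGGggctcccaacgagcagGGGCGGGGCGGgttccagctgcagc

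In the Sp5 promoter, the matches were AACAAAG, the reverse complement of CTTTGTT, at -222 to -216, and CTTTGAT at -104 to -98, counted in bases from the start. The second Tnfrsf19 start had ATCAAAG, the reverse complement of CTTTGAT, at -202 to -196. This start lies within the gene, 8930 bases from its annotated 5′ end. The opposite-strand RNA Gm41168 shares 8968 bases with Tnfrsf19. A TCF/LEF type match was found in 2 of the 10 promoters and in 14.8% of 32851 promoters of the table, and 2 or more matches in 1.43% of them. A GC box was found in 4 of the 10 promoters (Axin2 with 2, Ascl2 with 1, the second Tnfrsf19 start with 3, of which a pair overlap, and Ephb3 with 2) and in 32.7% of all. A match describes the letters of this window and is not a binding site.

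Axin2, Rnf43, Znrf3 and Nkd1 are the feedback inhibitors of the group. Axin2 (ENSMUSG00000000142, chromosome 11, 108811169 to 108841609, plus strand) had 57.9, 42.2, 31.4 and 34.2 normalised CPM in the control mice and 32.8, 30.4, 18.3 and 14.1 in the zinc deficient mice. Zinc deficient replicate 1 was above control replicate 3, so the diets overlapped, while zinc deficient replicates 3 and 4 were well below every control mouse. The means were 41.4 ± 11.9 and 23.9 ± 9.12 (SD, n = 4 each), with a log2 fold change of -0.81 (SE 0.27), short of the threshold. With the filter on low counts left out, Axin2 did pass, at a log2 fold change of -0.81.

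Rnf43 (ENSMUSG00000034177, chromosome 11, 87553548 to 87626377, plus strand) had 43.7, 35.8, 25.1 and 31.6 normalised CPM in the control mice and 31.0, 25.6, 21.4 and 14.4 in the zinc deficient mice. Its order of mice was like that of Axin2, with control replicate 1 highest and zinc deficient replicate 4 lowest, and the log2 fold change was -0.57 (SE 0.21). The RNA 1110028F11Rik, which overlaps Rnf43 on the same strand, had 20 counts in all mice together.

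Znrf3 (ENSMUSG00000041961, chromosome 11, 5226324 to 5394939, minus strand), which encodes the ligase paralogous to Rnf43, had 17.3, 16.7, 11.98 and 14.5 normalised CPM in the control mice and 16.7, 16.5, 14.4 and 14.4 in the zinc deficient mice. All 4 zinc deficient mice lay within the range of the control mice, and the log2 fold change was 0.03 (SE 0.17). The difference between the 2 ligases was not tested.

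Nkd1 (ENSMUSG00000031661, chromosome 8, 89247890 to 89324577, plus strand) had 35.5, 32.5, 33.9 and 27.5 normalised CPM in the control mice and 24.5, 42.8, 26.6 and 34.5 in the zinc deficient mice. Zinc deficient replicate 2 was above and replicates 1 and 3 below all control mice. The log2 fold change was -0.02 (SE 0.17), and its sign depended on the scaling: it was 0.0046 with the size factors of DESeq2. Znrf3 was also negative with the library size alone, at -0.37, the same value as the median of all genes there.

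Lgr5 and Tnfrsf19 encode cell surface receptors. Lgr5 (ENSMUSG00000020140, chromosome 10, 115286216 to 115423685, minus strand), a receptor of R-spondins, had 41.3, 38.1, 39.5 and 36.6 normalised CPM in the control mice and 27.0, 35.0, 32.2 and 15.2 in the zinc deficient mice. The control mice were the most alike of any of the 10 genes (coefficient of variation 5.06%) and all zinc deficient mice were below them. The log2 fold change was -0.51 (SE 0.20), short of the threshold.

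The gap between the diets was narrow for Lgr5. The 95% Wilson interval of control replicate 4 was 33.0 to 40.7 normalised CPM and that of zinc deficient replicate 2 was 31.1 to 39.4. The mean of the zinc deficient mice, 27.4 ± 8.73 (SD, n = 4), rested most on replicate 4, and without that mouse the log2 fold change was -0.31. Lgr5 shares its locus with A930009A15Rik on the opposite strand, which had 26 counts in all 8 mice together, against 163 or more for Lgr5 in each mouse.

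Tnfrsf19 (ENSMUSG00000060548, chromosome 14, 61201283 to 61284366, minus strand), also called Troy, belongs to the TNF receptor superfamily. Its levels were 9.33, 5.49, 8.57 and 4.24 normalised CPM in the control mice and 6.37, 3.92, 3.27 and 2.99 in the zinc deficient mice. The control mice spread over more than the difference of the means (coefficient of variation 35.3%), and zinc deficient replicate 1 was above 2 of them. The log2 fold change was -0.75 (SE 0.30).

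Ephb2 and Ephb3 encode receptor tyrosine kinases for B-type ephrins, and their log2 fold changes had opposite signs. Ephb2 (ENSMUSG00000028664, chromosome 4, 136374850 to 136563351, minus strand) had 50.4, 44.9, 36.3 and 36.2 normalised CPM in the control mice and 36.8, 36.0, 35.3 and 33.9 in the zinc deficient mice. The zinc deficient mice were almost equal (coefficient of variation 3.50%) and met the lower of the control mice, with a log2 fold change of -0.25 (SE 0.14). Without control replicate 1, the highest mouse, it was -0.15.

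Ephb3 (ENSMUSG00000005958, chromosome 16, 21023495 to 21042057, plus strand), the receptor known for placing PCs at the crypt base, had 103.9, 91.2, 79.3 and 86.4 normalised CPM in the control mice and 111.1, 78.4, 92.9 and 123.7 in the zinc deficient mice. The diets overlapped, and the log2 fold change was 0.17 (SE 0.16). With the library size alone it was -0.21, above the median of all genes there, -0.37.

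**Figure D2:**
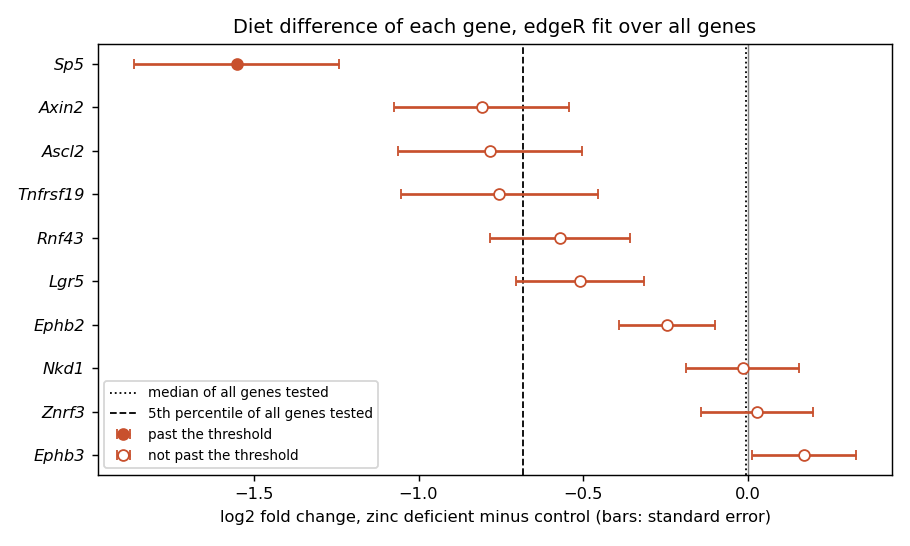
Log2 fold change of each gene, zinc deficient minus control (x axis, bars show the standard error of the edgeR fit), sorted from lowest to highest. Only Sp5, at -1.55, is drawn as past the threshold, and 4 genes lie below the 5th percentile of all genes tested, -0.68 (dashed line).

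Across mice, the 10 genes did not all vary together. Within diets, with the mean of each diet subtracted from log2(CPM + 1), Axin2 and Rnf43 had a Pearson r of 0.95, Ephb2 and Znrf3 of 0.84, and Rnf43 and Znrf3 of 0.81, whereas Lgr5 and Ephb3 had -0.72 (n = 8 mice). These correlations share the libraries and their scaling factors and are given as a description. Control replicate 1 was the highest control mouse for 8 of the 10 genes, and it also had the largest scaling factor. The share of all genes highest in that mouse was not counted, so this is not given as a trait of the 10 genes. The coefficient of variation was larger in the zinc deficient mice for 7 of the 10 genes, and for 55.4% of all genes tested.

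The genes most like Sp5 between mice, on the same scale and over 10910 other genes, were Cwf19l2 (r = 0.973), Dok1 (0.968), Dynlt1f (0.962), Clcn7 (0.961) and Slc16a1 (0.953). Of the 9 other Wnt targets, Ascl2 was the closest, at 0.56 and rank 682, and Nkd1 the farthest, at -0.60. The genes named first are the highest of 10910 values from 8 mice. Sp5 had 10 to 83 counts a mouse, so that counting error is part of its pattern. The gap between those genes and the 9 Wnt targets was not tested, and nothing is read from it.

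The summed level of the 10 genes depended on the scaling. As CPM of the total counts, the sum was 370 ± 150 in the control mice and 241 ± 39.8 in the zinc deficient mice (SD, n = 4 each), a log2 ratio of -0.55. As normalised CPM it was 371.8, 317.8, 278.6 and 286.3 in the control mice and 296.5, 274.4, 249.5 and 257.8 in the zinc deficient mice, a log2 ratio of -0.21. The diets overlapped on both scales, and Ephb3, the gene with the highest level, held much of the sum: without it the ratio on the scale of total counts was -0.76. Without control replicate 1 that ratio over all 10 genes was -0.31.

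The level of each gene per length was compared next, in TPM, counts divided by the summed exon length and scaled to the same total in each mouse, over all 8 mice. Ephb3 was highest, at 12 ± 4.95 TPM (SD, n = 8). Axin2 (4.42 ± 3.59), Rnf43 (3.99 ± 2.72), Ascl2 (3.61 ± 2.02), Nkd1 (3.34 ± 1.37), Lgr5 (2.87 ± 1.53) and Ephb2 (2.73 ± 1.46) formed a middle range in TPM. Znrf3 (1.66 ± 0.725), Sp5 (1.25 ± 0.970) and Tnfrsf19 (0.686 ± 0.531) were lowest in TPM.

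This order pools both diets and was not the same within each. Sp5 had a mean of 2.01 TPM in the control mice, above Znrf3 at 1.95, and of 0.495 TPM in the zinc deficient mice, below Znrf3 at 1.38. Tnfrsf19 had a mean of 0.975 TPM in the control mice and of 0.398 TPM in the zinc deficient mice, where it was near Sp5. Axin2 had a mean of 6.43 TPM in the control mice, second to Ephb3, and of 2.41 TPM in the zinc deficient mice, below Nkd1 at 2.68 and Rnf43 at 2.51.

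Neighbours in this order were compared within mice on log2(TPM + 1) by an exact two-sided sign-flip permutation test, with Benjamini-Hochberg adjustment over the 9 pairs. The smallest p the test can give with 8 mice is 0.0078125. Ephb3 exceeded Axin2 by 1.38 ± 0.56 (SD) in 8 of 8 mice (exact p = 0.00781, adjusted 0.0352). Ephb2 exceeded Znrf3 by 0.45 ± 0.15 in 8 of 8 mice (exact p = 0.00781, adjusted 0.0352), and Sp5 exceeded Tnfrsf19 by 0.36 ± 0.34 in 7 of 8 mice (exact p = 0.0156, adjusted 0.0469). The other 6 pairs did not pass with the summed exon length: Axin2 and Rnf43 differed by 0.06, Rnf43 and Ascl2 by 0.09, Ascl2 and Nkd1 by 0.01, Nkd1 and Lgr5 by 0.21, Lgr5 and Ephb2 by 0.04, and Znrf3 and Sp5 by 0.31 (exact test, adjusted p between 0.0703 and 0.953). The neighbours were set by these same TPM values. Both diets are pooled, so the differences of Sp5 include the diet contrast used in choosing the genes. In the control mice alone Sp5 over Tnfrsf19 was 0.62. Nothing is therefore read from the p of the pairs that hold Sp5.

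With 7 mice the exact test has fewer sign flips: the adjusted p of Ephb3 over Axin2 and of Ephb2 over Znrf3 was 0.0703 without any 1 mouse other than control replicate 4 and zinc deficient replicate 1, and that of Sp5 over Tnfrsf19 was 0.0703 to 0.0938 without any 1 mouse other than zinc deficient replicate 1.

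This order rested on the gene models. With the longest transcript as the length, Lgr5, whose annotated exons sum to 10264 bases against 4793 in its longest transcript, was above Nkd1 by 0.51 (adjusted p = 0.0301 by the exact test), and Rnf43 above Axin2 by 0.21 (adjusted p = 0.0141 by the exact test), both opposite to the order above and past the threshold. Rnf43 over Ascl2 by 0.56 and Lgr5 over Ephb2 by 0.73 then also passed (adjusted p = 0.0141 each by the exact test), as did Znrf3 over Sp5 by 0.49 (adjusted p = 0.0301 by the exact test). Sp5 over Tnfrsf19, by 0.19, no longer passed (adjusted p = 0.141 by the exact test), and Ascl2 and Nkd1 stayed short of the threshold.

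**Figure D3:**
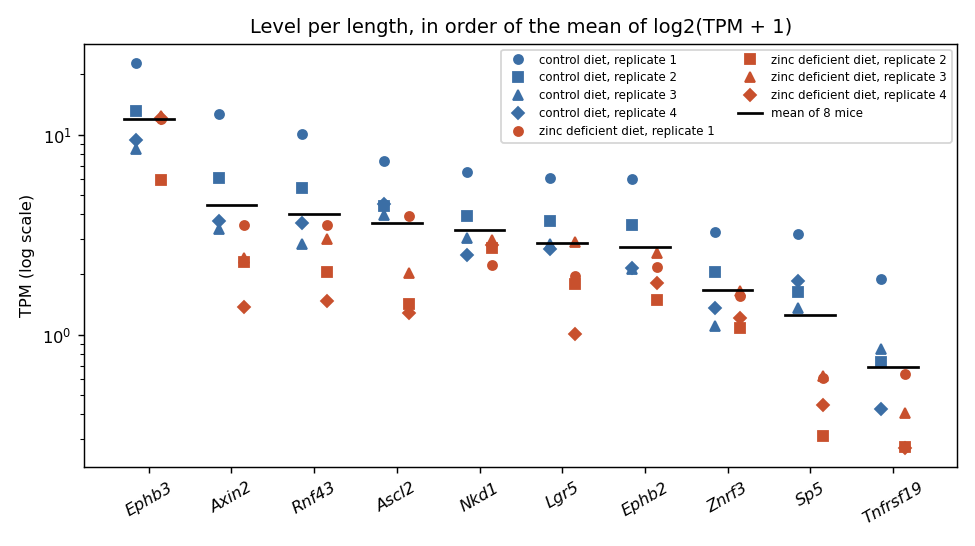
Level per length of the 10 genes in the 8 mice, as TPM from the summed exon length, in the order of their mean log2(TPM + 1). The y axis is logarithmic and black lines are means of 8 mice. Ephb3 lies highest (mean 12 TPM) and Tnfrsf19 lowest (mean 0.686 TPM), and the other 8 genes have means between 1.25 and 4.42 TPM and overlap.

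The rest of the pathway, with the Sp and the Eph and ephrin families, was read from 10 lists of 129 genes, of which 75 passed the expression filter. Of the 10 lists, 8 are Wnt lists, with 62 tested genes. Of these 75 genes, 1 fell (Cd44) and 0 rose by the edgeR quasi-likelihood test with Benjamini-Hochberg adjustment, beside 0.403% of all genes. Of the 75 genes, 59 had negative and 16 positive log2 fold changes, beside 50.7% negative over all genes, and the median was -0.16. In the 8 Wnt lists alone, 47 were negative and 15 positive, with a median of -0.14. An unadjusted p under 0.05 was found for 13 lower and 2 higher genes of the 75, and for 6.04% and 4.43% of all genes. In the 8 Wnt lists alone it was found for 11 lower and 1 higher of the 62. With DESeq2 as the test, 2 genes of these lists passed, Cd44 and Sfrp5, both lower, beside 74 lower and 61 higher of 18839 genes. Here and below, the 18839 include genes to which DESeq2 gave no adjusted p and which could not pass.

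Among the ligands, Wnt3, the main Wnt of PCs, had 123 ± 17.8 normalised CPM in the control mice and 130 ± 1.71 in the zinc deficient mice (SD, n = 4 each), with a log2 fold change of 0.09 (SE 0.14). Of the 19 Wnt genes, 8 had no count in any mouse and 4 were tested, and Wnt5a and Wnt10a were below 3 normalised CPM on average in both diets. Wls, which carries Wnt proteins to the surface, was at 44.7 and 43.2 normalised CPM in control and zinc deficient mice, and Porcn, which acylates them, at 3.61 and 2.86. Of the 4 Wnt genes tested by edgeR, with Wls and Porcn, 0 passed the threshold and 0 had an unadjusted p under 0.05. Over all genes, 0.403% passed, and 6.04% as lower and 4.43% as higher had an unadjusted p under 0.05. By DESeq2, 0 passed as well, where 11 Wnt genes were in the fit and 5 of them had no adjusted p.

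Of 16 receptor genes, 14 were tested and 11 had negative log2 fold changes, with a median of -0.36. An unadjusted p under 0.05 was found for 3 of the 14, all lower, and for 6.04% of all genes as lower. The 3 with the highest level per length were Fzd9 (log2 fold change 0.26, SE 0.16), Lrp5 (-0.19, SE 0.14) and Ryk (-0.03, SE 0.15). Lgr4, the R-spondin receptor related to Lgr5, was the only tested gene of 6 in the R-spondin system, and Rspo1, Rspo2, Rspo3 and Lgr6 had no count. Lgr4 was at 141 ± 5.11 normalised CPM in the control mice and 176 ± 14.6 in the zinc deficient mice, with no overlap. Its log2 fold change was 0.32 (SE 0.14), with an adjusted p of 0.427 by edgeR, opposite in sign to that of Lgr5, and the difference between the 2 genes was not tested.

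Secreted and membrane inhibitors had the lowest median of the lists, -0.78 over 6 tested genes of 17, of which 5 were negative. An unadjusted p under 0.05 was found for 3 of the 6, all lower, and for 6.04% of all genes as lower. Sfrp5, a secreted Frizzled-related protein, had 5.23, 8.11, 10.8 and 9.0 normalised CPM in the control mice and 4.96, 1.26, 1.67 and 2.99 in the zinc deficient mice. The diets did not overlap, by a small margin, and its log2 fold change was -1.59 (SE 0.35), with an adjusted p of 0.0553 by edgeR. Wif1, which binds Wnt ligands, was at -1.20 (SE 0.37, adjusted p = 0.215 by edgeR) and Dkk3 at 0.18 (SE 0.19).

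The cytoplasmic components had a median log2 fold change of -0.13 over 13 tested genes, from -0.54 (Dvl2) to 0.38 (Apc), with Ctnnb1, which encodes β-catenin, at -0.16 (SE 0.15), and its kinases Csnk1a1 at 0.04 (SE 0.14) and Gsk3a at 0.10 (SE 0.14). The nuclear components had a median of -0.05 over 9 tested genes, from -0.84 (Tle2, SE 0.50) to 0.19 (Tcf7l2), with the coactivators Bcl9 at -0.04 (SE 0.15), Pygo2 at 0.14 (SE 0.17) and Bcl9l at -0.14 (SE 0.19). In both lists 0 genes passed the threshold, by edgeR or by DESeq2, beside 0.403% of all genes by edgeR. An unadjusted p under 0.05 was found for 1 of the 13 cytoplasmic genes (the Dishevelled gene Dvl2, lower) and 0 of the 9 nuclear genes. Over all genes it was found for 6.04% as lower and 4.43% as higher.

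Among 15 other Wnt targets, 13 were tested and Cd44 fell. Cd44, a hyaluronan receptor of crypt cells, had 11.5, 12.05, 9.33 and 13.8 normalised CPM in the control mice and 5.50, 5.30, 6.78 and 5.42 in the zinc deficient mice. The diets did not overlap, and the log2 fold change was -1.02 (SE 0.20), with an adjusted p of 0.0343 by edgeR. The adjusted p was between 0.0764 and 0.147 when control replicate 2 or 4 or zinc deficient replicate 1, 2 or 4 was left out, and 0.113 with the library size alone.

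The 3 other targets with the highest level per length did not pass the threshold. Mmp7, the protease that matures mouse defensins and also a PC marker here, was at 0.52 (log2 fold change, SE 0.30), Sox9, which PCs need to form, at 0.06 (SE 0.15), and Ets2 at 0.02 (SE 0.14). Of the 13 targets tested, 4 had an unadjusted p under 0.05, all lower, beside 6.04% of all genes.

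Among relatives of the members, the Sp family other than Sp5 had 4 tested genes, with a median log2 fold change of -0.21. Sp1 was at -0.21 (SE 0.14), Sp3 at -0.25 (SE 0.14) and Sp2 at -0.08 (SE 0.26), and Sp7 and Sp8 had no count. Of 20 other Eph receptors and ephrins, 9 were tested, with a median of -0.32. An unadjusted p under 0.05 was found for 2 lower and 1 higher of the 9, and for 6.04% and 4.43% of all genes. Ephb4 was at -0.62 (SE 0.21, adjusted p = 0.249 by edgeR), with no overlap between the diets, the ephrin Efnb1 at -0.27 (SE 0.22) and Efna4 at -0.42 (SE 0.25).

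**Figure D4:**
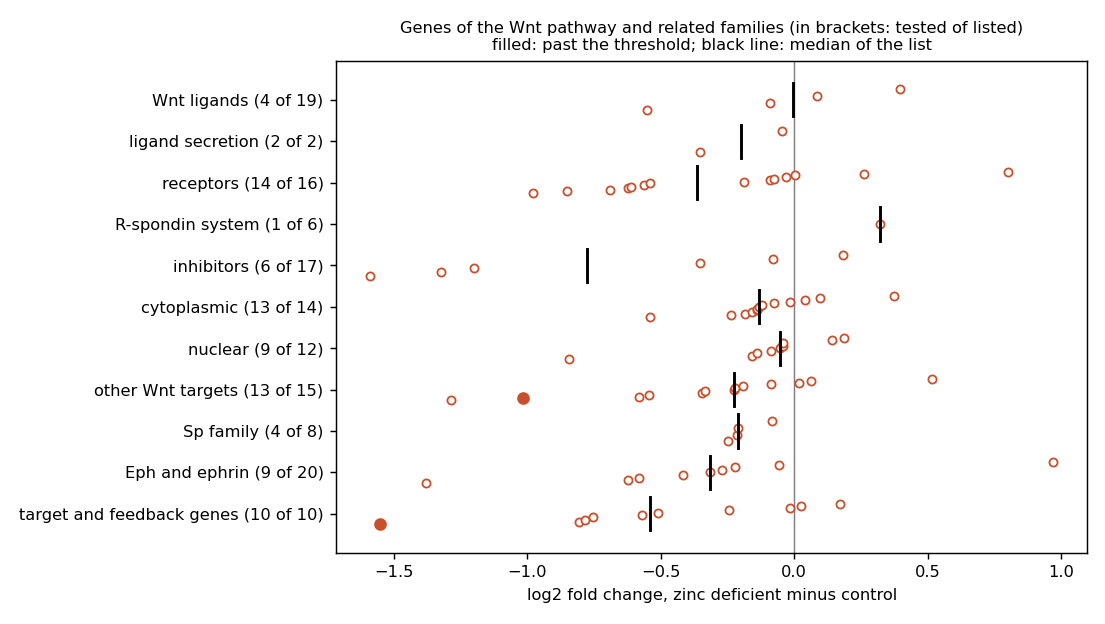
Log2 fold change, zinc deficient minus control, of each tested gene (points) of the Wnt lists and related families, with the median of each list. Of the 75 genes outside the 10 described here, Cd44 at -1.02 is the only one past the threshold, and the medians lie between -0.78 for the inhibitors and 0.32 for the R-spondin system, which holds Lgr4 alone.

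Genes of stem and dividing cells were read beside the 10 genes, since Lgr5, Ascl2 and Tnfrsf19 mark such cells. The 10 other stem cell markers summed to 1779 to 2422 normalised CPM in the control mice and 991 to 1590 in the zinc deficient mice, with no overlap. This rests on Olfm4: the other 9 markers, a sum added after the values were seen, lay between 644 and 706 normalised CPM in the control mice and between 548 and 714 in the zinc deficient mice, and overlapped. Of the 10 markers, 9 were tested, 7 were negative, and 0 passed the threshold of the edgeR test. An unadjusted p under 0.05 was found for 2 of them, both lower, and for 6.04% of all genes as lower. With DESeq2, 1 (Olfm4) passed, lower, beside 74 lower and 61 higher of 18839 genes. Olfm4, a secreted glycoprotein of crypt base cells, made up most of that sum, at 1345 ± 256 normalised CPM in the control mice and 693 ± 243 in the zinc deficient mice (SD, n = 4 each), with a log2 fold change of -0.96 (SE 0.25, adjusted p = 0.108 by edgeR). Slc12a2 was at -0.35 (SE 0.17), and Hopx at 0.36 (SE 0.18).

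The 26 proliferation genes summed to 328 to 391 normalised CPM in the control mice and 189 to 254 in the zinc deficient mice, also without overlap. All 26 had negative log2 fold changes, 22 with an unadjusted p under 0.05, and 3 fell by the edgeR test. Over all genes, 0.257% passed as lower and 6.04% had an unadjusted p under 0.05 and a lower level. The 3 were Top2a, a topoisomerase of dividing cells (-1.18, SE 0.21, adjusted p = 0.0229), and the replication helicase subunits Mcm6 (-0.88, SE 0.18, adjusted p = 0.0376) and Mcm7 (-0.83, SE 0.17, adjusted p = 0.0384). Of the genes with the highest level per length, Hmgb2 was at -0.69 (SE 0.16) and Pcna at -0.05 (SE 0.15). The calls were lost without some of the mice: Top2a without control replicate 2 or 4 or zinc deficient replicate 2 or 4, Mcm6 without any 1 mouse other than control replicate 3 and zinc deficient replicate 1, and Mcm7 without any 1 of the 8. With the library size alone, 0 of these 3 genes passed by edgeR, at log2 fold changes of -1.52, -1.26 and -1.17. Without the robust option Mcm6 and Mcm7 did not pass (adjusted p = 0.0502 each by edgeR). With DESeq2, 5 of the 26 genes passed, all lower, beside 74 lower and 61 higher of 18839 genes in that fit. All 26 had an adjusted p there, which not all of the 18839 genes had.

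The PC markers had 9 of 9 positive log2 fold changes with the TMM scaling, a median of 0.52 and 0 past the threshold of the edgeR test. Of them, 4 had an unadjusted p under 0.05 and a higher level, beside 4.43% of all genes. With DESeq2, 3 passed, all higher, beside 61 higher and 74 lower of 18839 genes. The smallest of the 9 log2 fold changes was 0.15, and with the library size alone the median of all genes was -0.37. The signs of these markers can therefore depend on the scaling. The part of stem cell, proliferation and PC genes in the values of the 10 Wnt targets was not tested.

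**Figure D5:**
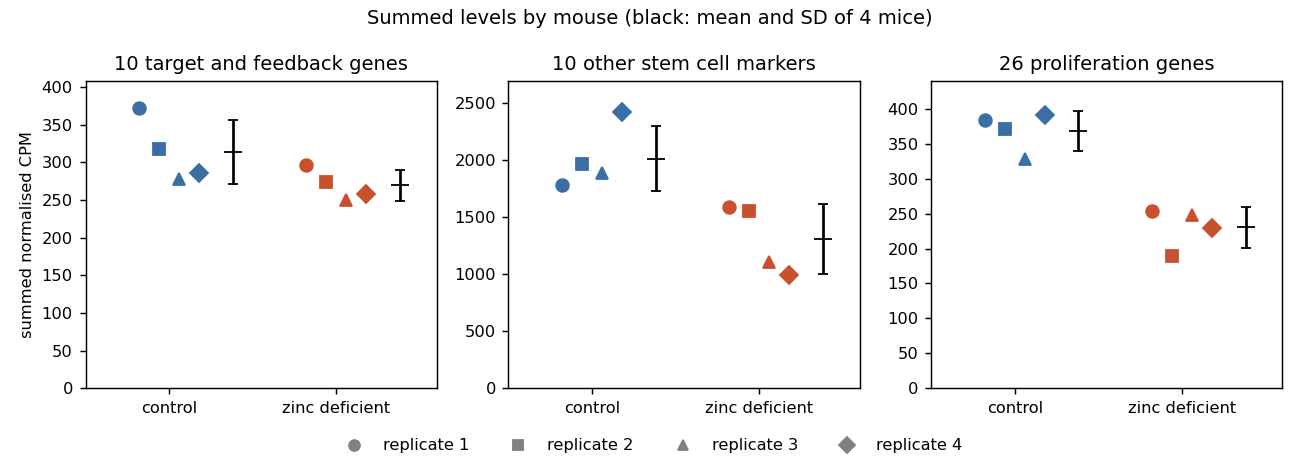
Summed normalised CPM per mouse (y axes, linear, starting at 0) of the 10 Wnt target and feedback genes, 10 other stem cell markers and 26 proliferation genes, with the mean and SD of 4 mice in black. The sums of the stem cell markers (991 to 1590 against 1779 to 2422) and of the proliferation genes (189 to 254 against 328 to 391) do not overlap between zinc deficient and control mice, whereas those of the 10 genes do. Without Olfm4 the sums of the stem cell markers overlap.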

How the data were processed

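Gene expression was measured by RNA-seq of sorted PCs of 8 mice. The counts deposited by the authors are whole numbers for each Ensembl identifier and were not normalised. The submitters' processing notes name STAR 2.7.0a, FastQC 0.12.0, DESeq2 and the build mm39. Sources used here name neither the counting program nor its strand setting. Columns carry the diet and number of each mouse, and 0 belonged to samples outside the series.

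Of 55414 identifiers, 54749 were named from GENCODE M39 on GRCm39, and the other 665 took at most 0.00991% of the counts of a mouse. The diet contrast was fitted in R 4.3.3 with edgeR 4.0.16 (TMM, expression filter, robust quasi-likelihood test, Benjamini-Hochberg adjustment over 10911 genes, threshold 0.05). The standard error was taken from the log2 fold change and the F statistic. This step was tested on simulated data. Replicates were taken as separate mice, from the study's account of its sorts, and no 2 libraries of the same diet agreed within sampling noise. CPM and TPM were computed here from the counts, with a pseudocount of 1 on the log scale. Precision is set by the counts, and 95% Wilson intervals cover counting error only. DESeq2 1.42.0 served as another test and for its size factors. Remaining steps ran in Python 3.11.15, numpy 2.4.6, scipy 1.17.1, pandas 2.3.3 and matplotlib 3.10.9.

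The 10 genes and the gene lists were chosen with earlier results of these data known. Named are the 10 genes, the genes of each pathway, stem cell and proliferation list that passed the threshold with the 3 of highest level per length, and the 5 genes most like Sp5. Overlapping genes, Lyz1, Apc, Dvl2, Tcf7l2, Tle2, Lgr6, Rspo1, Rspo2, Rspo3, Sp7 and Sp8 were named outside this rule, after their values were seen. Alternatives cover the scaling, the filter, the test, the robust option, the replicate block, the gene length, the pseudocount, and each mouse left out. Protein sequences were not analysed here.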

Additional observations from a re-analysis of the deposited data

How the results depend on the processing

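The count of genes past the threshold, 44 over all genes, depended strongly on the processing. It was 11 with the library size alone, 251 without the filter on low counts, 135 with DESeq2 and 25 without the robust option. Leaving out each mouse in turn gave 8 to 36, and fewer than 30 without control replicate 2 (8) or 4 (8) or zinc deficient replicate 1 (26), 2 (13) or 4 (17). The share of these calls that were higher was 36.4% in the main analysis, 56.0% without the robust option and up to 75.0% with a mouse left out (zinc deficient replicate 3). In the lists of the pathway and related families, the 1 gene called became 0 with the library size alone, 4 without the filter, 2 with DESeq2 and 0 to 2 with each mouse left out. Sp5 kept its direction in all 15 alternatives (-1.90 to -1.44) and passed the threshold in 4 of them.

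Directions changed for genes near 0. With the library size alone Znrf3 was at -0.37 and Ephb3 at -0.21. Nkd1 was at 0.0046 with DESeq2 size factors and 0.0072 with the DESeq2 test. With each mouse left out, Nkd1 ranged from -0.18 to 0.094 and Znrf3 from -0.063 to 0.098. The cause of these changes was not tested.

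In the order of levels, as differences of log2(TPM + 1), the pseudocount of 0.5 put Ascl2 over Nkd1 at -0.0025. With the longest transcript, Axin2 over Rnf43 was -0.21, Rnf43 over Ascl2 0.56, Ascl2 over Nkd1 -0.10, Nkd1 over Lgr5 -0.51, Lgr5 over Ephb2 0.73, Znrf3 over Sp5 0.49 and Sp5 over Tnfrsf19 0.19. In the control mice alone, where 4 mice cannot pass the threshold, Ephb3 over Axin2 was 1.01, Ephb2 over Znrf3 0.57, Sp5 over Tnfrsf19 0.62 and Znrf3 over Sp5 -0.049. With each mouse left out, Ephb3 over Axin2 was 1.23 to 1.47, Ephb2 over Znrf3 0.41 to 0.48, Sp5 over Tnfrsf19 0.27 to 0.42, Nkd1 over Lgr5 0.10 to 0.25, Ascl2 over Nkd1 -0.079 to 0.12 and Lgr5 over Ephb2 -0.0014 to 0.11.

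Whether the replicate numbers pair the mice is not known. The deviations of same-numbered mice correlated at 0.114, 0.0925, 0.0049 and 0.0926, all weakly positive. Those of mice with different numbers lay between -0.211 and 0.183, a range that holds these values. With the replicate number as a block, 53 genes were called, Sp5 (log2 fold change -1.55) no longer passed and Axin2 (-0.83) did. Sp5 had 10 to 83 counts a mouse, which limits its precision.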
